A study of Homo sapiens with 24 samples.

Results

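The genes described here are 8 that encode glycophorins or carriers of blood group antigens on the red cell surface, and CA1, which encodes the cytosolic carbonic anhydrase I of red cells. They were taken by name from the rows of the deposited count table, which gave 9 members (GYPB, GYPC, GYPE, KEL, XK, ERMAP, BCAM, ICAM4 and CA1) of 21925 gene entries. All 9 passed the filter on low counts that left 13147 genes for testing.

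The study asked what silencing eHDAC6, a putative enhancer of the transcription factor gene GATA1, does in K562, a human erythroleukaemia line, beside silencing GATA1 at its start site. All libraries came from K562 cells with dCas9-KRAB, a Cas9 without cutting activity joined to a repressor domain, under a doxycycline-inducible promoter. The cells received 1 sgRNA each and 24 hours of doxycycline, so the controls carried the repressor and the drug too. There were 6 libraries with GATA1TSS sgRNAs (2 sgRNAs), 6 with eHDAC6 sgRNAs (2 sgRNAs) and 12 with non-targeting NC sgRNAs (4 sgRNAs), with 3 biological replicates per sgRNA. PolyA RNA from 10000 lysed cells was made into strand-specific paired-end libraries. RNA was measured from cultures, so fewer cells of a kind and less RNA per cell cannot be told apart.

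Total counts ran from 4290343 (GATA1TSS-Guide2 replicate 2) to 23205811 per library, with a median of 13479250. Levels are given as CPM, counts scaled to a common total with TMM factors, which correct for library composition. GATA1 stood at 84.8 ± 37.1 CPM with GATA1TSS and 253.5 ± 8.7 CPM with eHDAC6 (SD, n = 6 each), against 362.8 ± 28.9 CPM in NC (SD, n = 12). With GATA1TSS-Guide1 it stood at 116.5 ± 18.03 CPM and with GATA1TSS-Guide2 at 53.1 ± 9.7 CPM (SD, n = 3 each). All 8 K562 markers in the table were tested and present, and they include GATA1, the targeted gene. They summed to 6333 to 10545 CPM with GATA1TSS and 6685 to 9423 CPM with eHDAC6, against 7977 to 14355 CPM in NC. With GATA1TSS 8 of 8 were lower (median log2 change -0.50) and with eHDAC6 7 of 8 (-0.54), where 13.7% and 15.3% of all genes were lower. Against the 4 NC libraries described next it was 2 (-0.08) and 1 (-0.11), where 10.1% and 1.48% of all genes were called in either direction. GATA1 itself is counted in each of these, and with eHDAC6 against the 4 it was the only 1. T and B lymphocyte markers (4 of 6 tested) summed to 28.1 to 54.1 CPM with GATA1TSS and 26.0 to 40.2 CPM with eHDAC6, against 16.9 to 35.0 CPM in NC. Of the 4, 3 were higher with GATA1TSS (median log2 change 0.73) and 1 with eHDAC6 (0.55), where 13.5% and 15.8% of all genes were higher. Against the 4 NC libraries it was 2 (0.59) and 0 (0.21). Granulocyte and monocyte markers (3 of 7 tested) summed to 107.6 to 162.6 CPM with GATA1TSS and 122.6 to 140.5 CPM with eHDAC6, against 90.5 to 123.6 CPM in NC. With each element 1 of these was higher and 0 lower, and against the 4 NC libraries 0 were called. Fibroblast and epithelial markers (2 of 7 tested) summed to 64.0 to 78.9 CPM with GATA1TSS and 63.6 to 86.2 CPM with eHDAC6, against 58.7 to 101.3 CPM in NC. With GATA1TSS 1 was higher and 1 lower, also against the 4 NC libraries, and with eHDAC6 0 were called in either comparison. No gene of these lists was at 0 in every library, and the part of these markers in the results was not tested.

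The NC libraries were not alike. On the first principal component of the NC libraries, taken without any of the genes on the lists used here (25.9% of their variance), 4 libraries stood apart, namely NC-Guide3 replicates 2 and 3 with NC-Guide4 replicates 2 and 3, and the remaining 8 lay together. The labels give no date, lane or batch for them. GATA1 did not separate the sets, at 365.9 ± 12.8 CPM in the 4 and 361.3 ± 35.1 CPM in the 8 (SD). The members did: in 7 of the 9 (GYPB, GYPC, GYPE, KEL, XK, ERMAP and CA1) the 8 libraries lay above the 4 without overlap, as in 5.9% of all genes tested. For that reason the targeted libraries are set against all 12 controls, then against the 4 and the 8 by themselves. No test was made between the 4 and the 8, since the data defined them.

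Glycophorins are sialic acid-rich proteins that span the red cell membrane. Glycophorin B (GYPB) carries the Ss antigens and glycophorin C (GYPC) the Gerbich antigens, and glycophorin C also ties the membrane to the skeleton through protein 4.1 and p55. KEL encodes the Kell protein, an endopeptidase of the neprilysin family, which is joined by a disulfide bond to XK, the carrier of the Kx antigen. ERMAP (Scianna), BCAM (Lutheran) and ICAM4 (LW) are immunoglobulin superfamily proteins, of which BCAM binds laminin and ICAM4 binds integrins. Carbonic anhydrase I interconverts carbon dioxide and bicarbonate. GATA1 binds a GATA motif and is known for driving many red cell genes.

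GYPB and GYPE are close copies of each other on chromosome 4. This matters for what their counts can say, so the first 60 coding bases of both are shown, read from GENCODE transcripts, with capitals at the positions where GYPB and GYPE differ.
GYPB: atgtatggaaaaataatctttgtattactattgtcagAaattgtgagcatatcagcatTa
GYPE: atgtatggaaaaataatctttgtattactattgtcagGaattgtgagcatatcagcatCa
Over this stretch GYPE differed from GYPB at 2 bases. Of all 25-base windows of the GYPB transcript, 14.69% occurred unchanged in GYPE, while of those of GYPE 4.40% occurred in GYPB. No 25-base window was shared with GYPC. Reads from the shared windows may be split between them, so the GYPB and GYPE values are uncertain in that sense.

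Promoters are shown for GYPC and GYPE, which fell with both targeted elements, and for KEL, which did not pass the test with either. Each is the 250 bases before the gene start in the RefSeq table (GRCh38.p14), and capitals mark the GATA motif on either strand. The letters searched were AGATAA, a form ending in G (AGATAG), a form starting with T (TGATAA) and a form with both changes (TGATAG), with overlapping matches counted separately.
GYPC: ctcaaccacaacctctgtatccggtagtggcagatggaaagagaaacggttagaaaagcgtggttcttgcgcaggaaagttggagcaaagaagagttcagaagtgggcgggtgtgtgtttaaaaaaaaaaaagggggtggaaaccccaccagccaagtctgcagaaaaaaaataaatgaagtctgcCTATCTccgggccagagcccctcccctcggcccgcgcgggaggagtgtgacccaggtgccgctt
GYPE: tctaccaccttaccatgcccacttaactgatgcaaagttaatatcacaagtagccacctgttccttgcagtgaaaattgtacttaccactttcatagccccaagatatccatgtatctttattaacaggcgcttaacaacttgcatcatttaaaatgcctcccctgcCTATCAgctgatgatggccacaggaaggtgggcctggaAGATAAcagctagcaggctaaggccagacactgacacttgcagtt
KEL: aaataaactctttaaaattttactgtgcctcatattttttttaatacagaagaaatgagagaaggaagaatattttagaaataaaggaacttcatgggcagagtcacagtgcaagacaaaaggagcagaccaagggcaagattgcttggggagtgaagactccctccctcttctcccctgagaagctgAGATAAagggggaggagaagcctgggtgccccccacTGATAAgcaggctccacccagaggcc
These windows are chr2:126655908-126656157 on the plus strand for GYPC, chr4:143905560-143905809 on the minus strand for GYPE and chr7:142962364-142962613 on the minus strand for KEL. The GYPC window held 1 motif, and those of GYPE and KEL held 2 each. Of 35116 windows of this length in the table, 22.3% held 1 or more motifs and 4.96% held 2 or more. The table had entries for 7 of the 9 members, and the windows of BCAM and ICAM4 held 0 motifs. The first ERMAP window held 0 and the second 2, and the first GYPB window held 1 and the second 2. The GYPE window was 97.95% identical to a GYPB promoter over 244 aligned bases, with 5 that differ. A match is a description of letters and not a bound site.

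Levels can be set against each other only per length, so RPKM was computed from the union of exons in the deposited hg19 gene models. In NC the order of levels was GYPB (230 RPKM), GYPC (146 RPKM), KEL (99.5 RPKM), GYPE (76.8 RPKM), ICAM4 (62.0 RPKM), ERMAP (60.001 RPKM), CA1 (43.3 RPKM), XK (18.5 RPKM) and BCAM (1.46 RPKM). BCAM rested on few reads, 40 to 94 counts per NC library and 16 in GATA1TSS-Guide2 replicate 2, so that its values are the least precise.

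With either targeted element, most of the members stood below NC and none above it at the test's threshold. With GATA1TSS, 5 of 9 fell (GYPC, GYPE, ERMAP, ICAM4 and CA1) and 0 rose, where 27.2% of all genes tested were called in either direction and 13.7% were called lower. With eHDAC6, 6 of 9 fell (GYPC, GYPE, XK, ERMAP, ICAM4 and CA1) and 0 rose, where 31.1% of all genes were called in either direction and 15.3% lower. The median log2 change of the members was -0.34 with GATA1TSS and -0.23 with eHDAC6, beside medians over all genes tested of -0.0029 and -0.0086. These are edgeR quasi-likelihood tests with Benjamini-Hochberg adjusted p under 0.05 over all genes tested. The 2 comparisons share their NC libraries. With counts summed per sgRNA, so that the sgRNA is the unit (2 per element against 4), 1 of 9 was called with GATA1TSS (GYPE, at -0.57, edgeR adjusted p = 0.043) and 0 with eHDAC6 (3 at an unadjusted p under 0.05 by edgeR), where 604 and 254 of all 13147 genes were called. There GYPC was at -0.53 with GATA1TSS (edgeR adjusted p = 0.051) and -0.39 with eHDAC6 (edgeR adjusted p = 0.11), and GYPE at -0.54 with eHDAC6 (edgeR adjusted p = 0.065).

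The counts followed the choice of control libraries. Against the 4, GATA1TSS left 1 of 9 called (GYPC, lower, where 10.1% of all genes were called and 5.18% lower). In the same comparison eHDAC6 left 0 of 9 (1.48% of all genes), and the median log2 changes were -0.01 with GATA1TSS and 0.02 with eHDAC6. By unadjusted edgeR p under 0.05, KEL and XK were above the 4 with each element, and BCAM was below them with GATA1TSS. Against the 8, every member but BCAM was lower with each element, 8 of 9 each, where 34.4% of all genes were called with GATA1TSS (16.8% lower) and 38.9% with eHDAC6 (18.8% lower). For all 9 members the 4 libraries overlapped the 12 targeted ones in range.

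**Figure D1:**
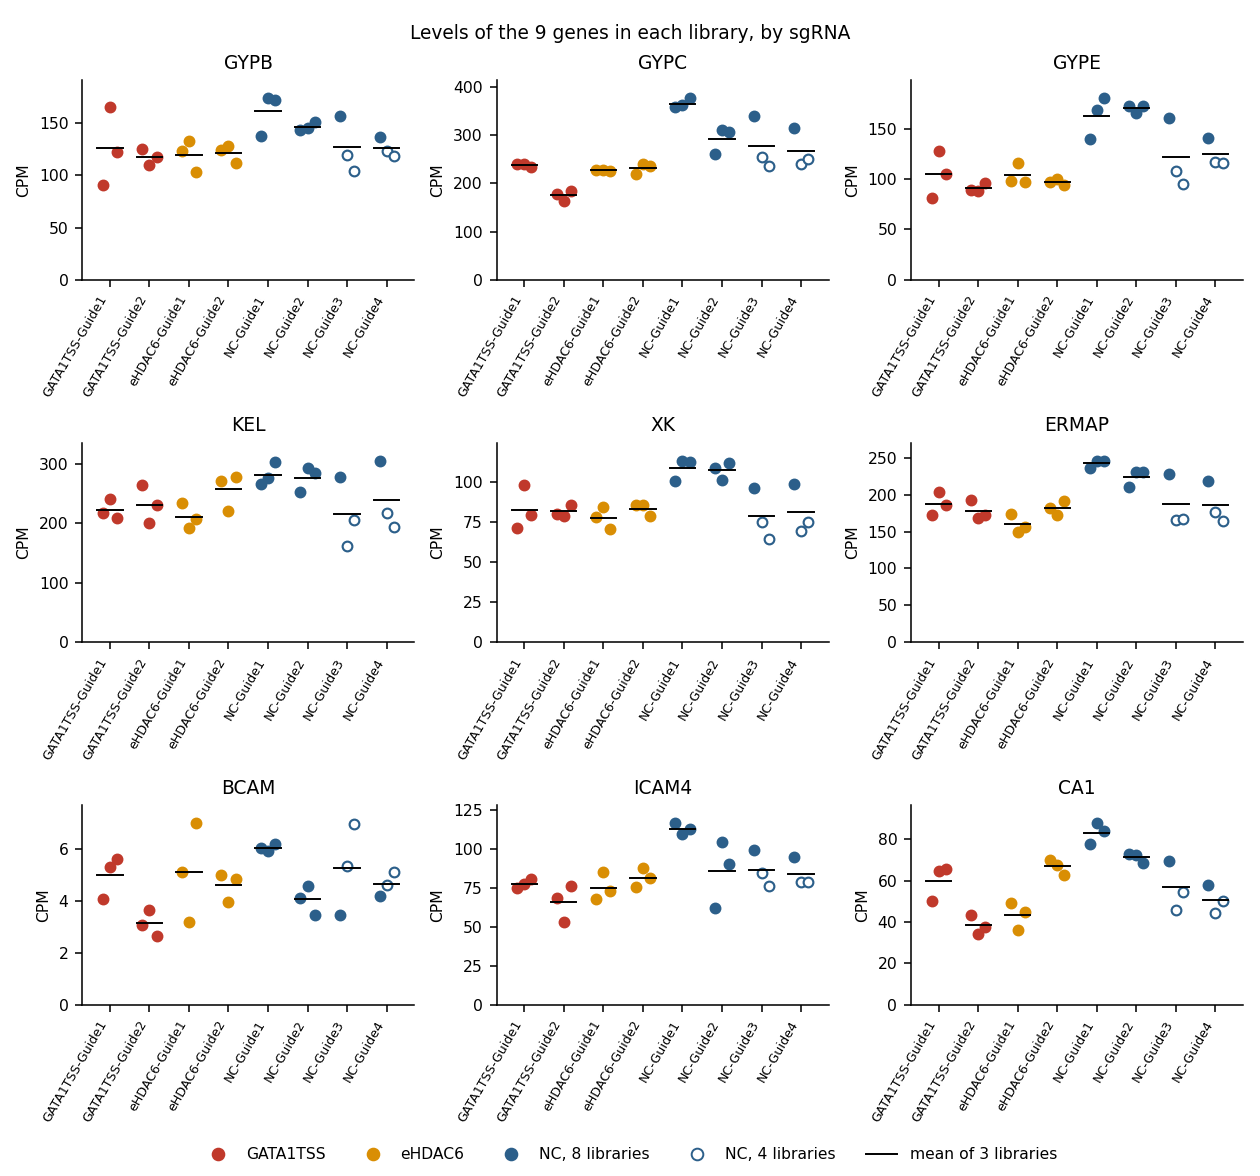
CPM of each member in the 24 libraries, by sgRNA (GATA1TSS red, eHDAC6 orange, NC blue). Open blue points are the 4 NC libraries that stood apart, and bars are means of 3 libraries. In 7 panels the 8 filled NC points lie above the 4 open ones, and GYPC with GATA1TSS-Guide2 (164.2 to 184.1 CPM) lies below all other libraries.

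By the tests on single libraries against all 12, GYPC had the lowest adjusted p of the members with each element. With counts summed per sgRNA it was called with neither (edgeR adjusted p = 0.051 with GATA1TSS and 0.11 with eHDAC6). There GYPE had lower values (edgeR adjusted p = 0.043 and 0.065). GYPC stood at 240.2, 239.7 and 233.7 CPM with GATA1TSS-Guide1 and at 178.3, 164.2 and 184.1 CPM with GATA1TSS-Guide2. With eHDAC6-Guide1 it stood at 228.1, 228.4 and 226.7 CPM and with eHDAC6-Guide2 at 219.3, 240.7 and 236.0 CPM. In NC the 4 libraries ran from 236.6 to 255.7 CPM, and the 8 from 261.7 through a median of 327.3 to 376.8 CPM. All 12 targeted libraries thus lay below the lowest of the 8, while GATA1TSS-Guide1 lay within the range of the 4 or just below it. On the log2 scale GYPC fell by 0.55 with GATA1TSS (SE 0.066, edgeR adjusted p = 7.3e-07) and by 0.38 with eHDAC6 (SE 0.066, edgeR adjusted p = 0.00013), lower than the NC mean in 6 of 6 libraries each. Against the 4 it fell by 0.26 with GATA1TSS (SE 0.051, edgeR adjusted p = 0.0015), and the eHDAC6 value was -0.10 (SE 0.051, edgeR adjusted p = 0.40).

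GYPE, of which no antigen-bearing protein is well established, stood at 81.3, 128.1 and 105.0 CPM with GATA1TSS-Guide1 and at 88.7, 87.8 and 95.7 CPM with GATA1TSS-Guide2. It stood at 98.3, 116.0 and 96.9 CPM with eHDAC6-Guide1 and at 97.2, 100.4 and 93.9 CPM with eHDAC6-Guide2. In NC the 4 libraries ran from 94.7 to 117.3 CPM and the 8 from 139.8 to 179.9 CPM with a median of 167.3 CPM. The targeted libraries lay in and around the range of the 4 and all below the 8. GYPE fell by 0.55 with GATA1TSS (SE 0.093, edgeR adjusted p = 6.4e-05) and by 0.51 with eHDAC6 (SE 0.093, edgeR adjusted p = 0.00021) on the log2 scale. Against the 4 the values were -0.15 and -0.12 (edgeR adjusted p = 0.32 and 0.59).

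GYPB did not pass the test against all 12. It averaged 121.8 ± 24.6 CPM with GATA1TSS and 120.6 ± 11.2 CPM with eHDAC6 (SD, n = 6 each), against 140.3 ± 21.5 CPM in NC (SD, n = 12), with log2 differences of -0.19 (SE 0.094, edgeR adjusted p = 0.13) and -0.21 (SE 0.094, edgeR adjusted p = 0.086). The sign turned against the 4, at 0.07 and 0.05. Against the 8, GYPB was lower by the test, at -0.30 with GATA1TSS and -0.31 with eHDAC6 (edgeR adjusted p = 0.020 and 0.013). The widest spread was within GATA1TSS-Guide1, whose replicates read 91.0, 165.5 and 122.4 CPM.

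KEL and XK, whose proteins form the Kell complex, gave 1 call in 4 tests against all 12. KEL averaged 227.3 ± 23.3 CPM with GATA1TSS and 234.2 ± 35.0 CPM with eHDAC6 (SD, n = 6 each), against 253.4 ± 47.1 CPM in NC (SD, n = 12). Its log2 differences were -0.15 (edgeR adjusted p = 0.27) and -0.11 (edgeR adjusted p = 0.39), and against the 4 they turned to 0.23 and 0.26. Against the 8 they were -0.32 and -0.29 (edgeR adjusted p = 0.0010 and 0.0025). With eHDAC6-Guide2 alone KEL was higher than the 4 by 0.40 (SE 0.10, edgeR adjusted p = 0.037), at 271.8, 221.0 and 278.8 CPM against 161.7 to 217.6 CPM, where 1.63% of all genes were called. Against all 12 the same sgRNA gave 0.03.

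With eHDAC6, XK fell by 0.21 (log2 scale, SE 0.080, edgeR adjusted p = 0.0492), at 80.8 ± 6.0 CPM (SD, n = 6) against 94.2 ± 17.97 CPM in NC (SD, n = 12). This call was the least firm: it was lost in 16 of 24 fits that left out 1 library. With GATA1TSS the value was -0.18 (SE 0.080, edgeR adjusted p = 0.10). The 4 ran from 64.8 to 75.5 CPM, and 10 of the 12 targeted libraries lay above the highest of them. Here the differences were 0.21 with GATA1TSS and 0.18 with eHDAC6 (edgeR adjusted p = 0.096 and 0.30).

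The immunoglobulin-type genes differed among themselves. ERMAP fell by 0.19 with GATA1TSS (SE 0.067, edgeR adjusted p = 0.036) and by 0.29 with eHDAC6 (SE 0.068, edgeR adjusted p = 0.0022) on the log2 scale. It averaged 182.6 ± 13.9 CPM with GATA1TSS and 170.9 ± 15.3 CPM with eHDAC6 (SD, n = 6 each), against 210.0 ± 32.3 CPM in NC (SD, n = 12). All 12 targeted libraries lay below the lowest of the 8, but against the 4 the sign turned, to 0.12 and 0.02, and the GATA1TSS call was lost in 10 of 24 fits that left out 1 library. ERMAP shares 64 exon bases (1.83%) with SVBP on the opposite strand, which bears on its counts only if strand was not used in counting.

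ICAM4 fell by 0.34 with GATA1TSS (SE 0.086, edgeR adjusted p = 0.0036) and by 0.23 with eHDAC6 (SE 0.086, edgeR adjusted p = 0.043) on the log2 scale. Its levels were 71.9 ± 10.0 CPM with GATA1TSS and 78.4 ± 7.6 CPM with eHDAC6 (SD, n = 6 each), against 92.4 ± 16.8 CPM in NC (SD, n = 12). NC-Guide2 replicate 1, at 62.4 CPM, was below all but 1 targeted library, and the 4 and the 8 overlapped. The eHDAC6 call was lost in 14 of 24 fits that left out 1 library, and against the 4 the values were -0.13 with GATA1TSS and -0.02 with eHDAC6. BCAM was low throughout, at 4.05 ± 1.18 CPM with GATA1TSS and 4.84 ± 1.28 CPM with eHDAC6 (SD, n = 6 each), against 4.99 ± 1.12 CPM in NC (SD, n = 12). Its log2 differences were -0.35 (edgeR adjusted p = 0.091) and -0.02 (edgeR adjusted p = 0.93), and against the 4 they were -0.50 (edgeR adjusted p = 0.087) and -0.16 (edgeR adjusted p = 0.73).

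CA1 fell with both elements as a mean of sgRNAs, but the sgRNAs of each element disagreed. It stood at 50.1, 64.6 and 65.4 CPM with GATA1TSS-Guide1 and at 43.2, 34.3 and 37.5 CPM with GATA1TSS-Guide2. With eHDAC6-Guide1 it stood at 49.3, 36.2 and 44.9 CPM and with eHDAC6-Guide2 at 70.2, 67.7 and 62.9 CPM. The 4 NC libraries ran from 44.1 to 54.7 CPM and the 8 from 58.1 to 87.7 CPM with a median of 72.7 CPM. GATA1TSS-Guide2 lay below the 4, and eHDAC6-Guide2 above them and within the 8. The log2 change was -0.41 with GATA1TSS (SE 0.084, edgeR adjusted p = 0.0005) and -0.25 with eHDAC6 (SE 0.083, edgeR adjusted p = 0.022) against all 12, and -0.01 and 0.15 against the 4. The eHDAC6 call was lost without eHDAC6-Guide1 replicate 2 (-0.20, edgeR adjusted p = 0.090) and without eHDAC6-Guide2 replicate 3 (-0.23, edgeR adjusted p = 0.066). CA1 lies at position 86240458 to 86290383 on the minus strand of chromosome 8 in hg19.

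**Figure D2:**
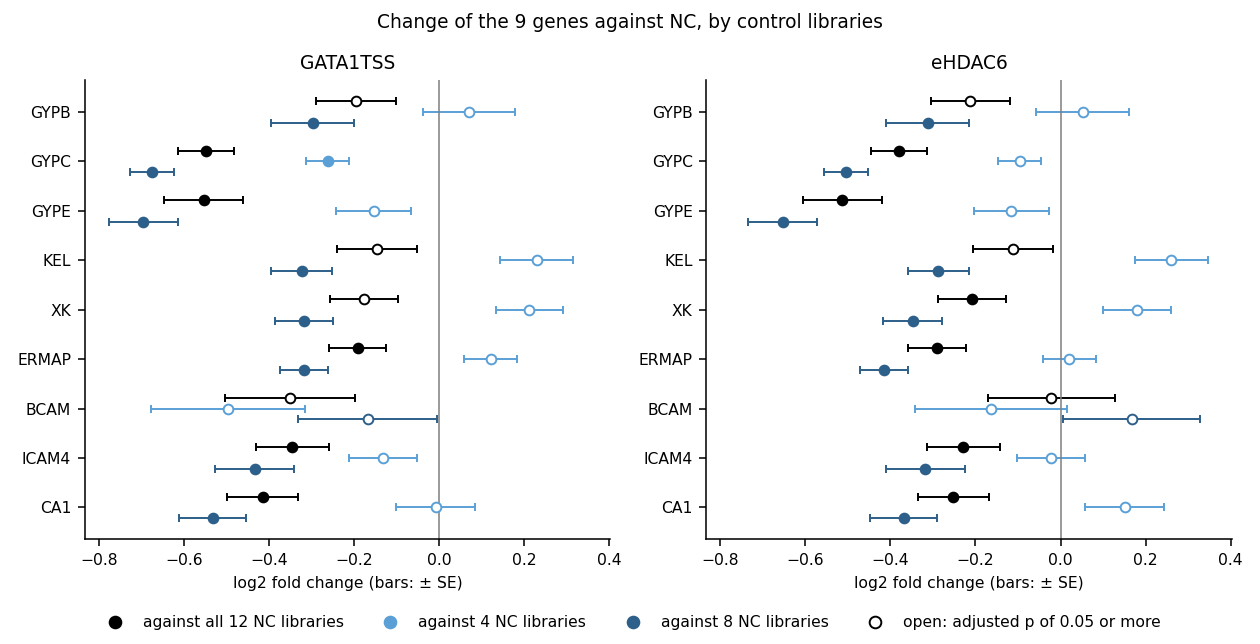
Log2 fold change of each member with GATA1TSS (left) and eHDAC6 (right) against all 12 NC libraries (black), the 4 (light blue) and the 8 (dark blue), with bars of 1 SE. Filled points passed the test. For 8 members the values against the 4 lie nearer 0 than those against all 12, or above 0, with GYPC under GATA1TSS filled at -0.26. BCAM lies further below 0 against the 4, at -0.50 with GATA1TSS and -0.16 with eHDAC6, both open.

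The sgRNAs were also compared with each other. GATA1TSS-Guide2, the one with less GATA1, was lower than GATA1TSS-Guide1 in 2 of 9 members, where 3.48% of all genes were called and 1.7% lower. These were GYPC, at 175.5 ± 10.3 CPM against 237.9 ± 3.6 CPM (SD, n = 3 each), at -0.43 in log2 (SE 0.11, edgeR adjusted p = 0.020), and CA1, at 38.3 ± 4.5 CPM against 60.003 ± 8.6 CPM (SD, n = 3 each), by -0.63 (SE 0.14, edgeR adjusted p = 0.0084). The libraries of these sgRNAs did not overlap for 3 of 9 members (25.7% of all genes), the third being BCAM at -0.72 (SE 0.25, edgeR adjusted p = 0.11). Without GATA1TSS-Guide1 replicate 3 neither call passed, and the GYPC call also failed without GATA1TSS-Guide1 replicate 1 or 2 and without GATA1TSS-Guide2 replicate 1 or 2, where CA1 alone was called. The edgeR adjusted p of GYPC ran from 0.051 to 0.082 in these 5 fits. The count over all genes moved too, at 181 to 377 in them, beside 457 with all libraries.

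Between the eHDAC6 sgRNAs, 0 of 9 members were called by edgeR, with 1 at an unadjusted p under 0.05, where 0.0152% of all genes were called. That 1 was CA1, higher with eHDAC6-Guide2 by 0.62 (SE 0.14, 67.0 ± 3.7 CPM against 43.4 ± 6.7 CPM, SD, n = 3 each, no overlap, as in 11.7% of all genes) at an edgeR adjusted p of 0.44, and DESeq2, which called 3 genes in all, called it at an adjusted p of 0.044. The genes that edgeR did call between these sgRNAs, 2 in all, were both on the list of other blood group antigen genes, chosen here after their values were seen. SLC4A1, the anion exchanger band 3 that carries the Diego antigens, averaged 82.6 CPM with eHDAC6-Guide2 and 32.5 CPM with eHDAC6-Guide1, which is 1.34 in log2 (SE 0.20, edgeR adjusted p = 0.0043). AQP1, the water channel that carries the Colton antigens, averaged 71.7 and 44.7 CPM with the same sgRNAs, which is 0.68 in log2 (SE 0.12, edgeR adjusted p = 0.027). SLC4A1 and AQP1 were also lower with GATA1TSS-Guide2 than with GATA1TSS-Guide1, at log2 differences of -0.90 (edgeR adjusted p = 0.0079) and -0.89 (edgeR adjusted p = 7.4e-05).

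Each sgRNA was also set against NC by itself. Against all 12, GATA1TSS-Guide1 had 2 of 9 members lower (GYPC -0.33 and GYPE -0.45, with 12% of all genes called) and GATA1TSS-Guide2 had 5 (GYPC -0.76, CA1 -0.73, BCAM -0.71, GYPE -0.66 and ICAM4 -0.45, with 24.8%). The eHDAC6-Guide1 sgRNA had 4 lower (CA1 -0.56, GYPE -0.47, GYPC -0.39 and ERMAP -0.38, with 16.7%) and eHDAC6-Guide2 had 2 (GYPE -0.56 and GYPC -0.37, with 19.2%). Against the 4, GATA1TSS-Guide1 had 0 members called (0.357% of all genes, with 3 members at an unadjusted p under 0.05 by edgeR, all above the 4, namely CA1 at 0.30, XK at 0.22 and ERMAP at 0.16) and eHDAC6-Guide1 had 0 (0.38%, with 0 at an unadjusted p under 0.05). In the same comparison GATA1TSS-Guide2 had GYPC and BCAM lower, at -0.48 and -0.86 (19.1%), and eHDAC6-Guide2 had CA1 and KEL higher, at 0.46 and 0.40 (1.63%). GYPC and GYPE were thus the members called lower than the mean of all 12 controls with each of the 4 targeting sgRNAs. Single libraries overlapped the controls. Against the 4, GYPE was called with no sgRNA, and GYPC with GATA1TSS-Guide2 only (-0.04 with GATA1TSS-Guide1, -0.11 with eHDAC6-Guide1 and -0.08 with eHDAC6-Guide2).

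Set directly against each other, eHDAC6 and GATA1TSS differed in 0 of 9 members (1.53% of all genes), by DESeq2 also 0, with GYPC alone at an unadjusted p under 0.05. GYPC was 0.17 higher with eHDAC6 on the log2 scale (95% interval 0.01 to 0.32, edgeR adjusted p = 0.29). Intervals for the others show what these data leave possible: -0.24 to 0.20 for GYPB, -0.18 to 0.26 for GYPE, -0.19 to 0.26 for KEL, -0.22 to 0.16 for XK, -0.26 to 0.06 for ERMAP, -0.09 to 0.32 for ICAM4, -0.03 to 0.36 for CA1 and -0.03 to 0.69 for BCAM. GATA1 itself differed by 1.67 (SE 0.08, edgeR adjusted p = 1.1e-13) between the elements.

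**Figure D3:**
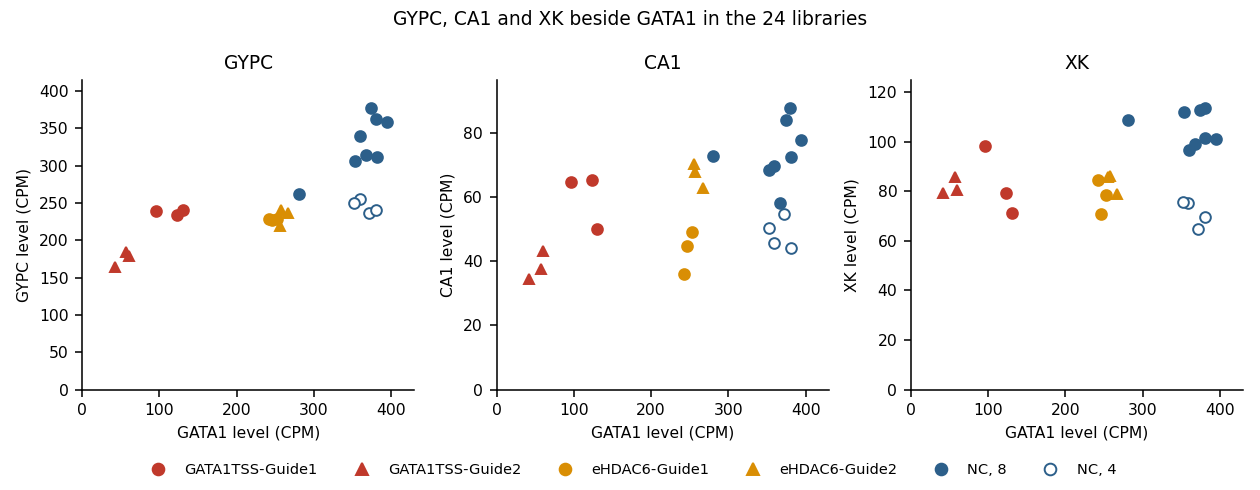
GYPC, CA1 and XK (CPM) beside GATA1 (CPM) in each library, with GATA1TSS red, eHDAC6 orange (circle Guide1, triangle Guide2) and NC blue, the 4 libraries open. GATA1TSS-Guide2 is lowest in GATA1 (42.1 to 60.2 CPM) and in GYPC, while XK at 79.1 to 85.8 CPM in those libraries lies above the 4 open points, whose GATA1 is higher.

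The 4 NC sgRNAs differed among themselves in 5 of 9 members (GYPC, GYPE, XK, ERMAP and CA1), where 12.3% of all genes were called in 1 edgeR test. That count was 2 or 3 without any 1 of 8 libraries (each of NC-Guide1, NC-Guide2 replicate 1, and replicates 2 and 3 of NC-Guide3 and NC-Guide4), and 8 without NC-Guide3 replicate 1. The count over all genes moved too, at 269 to 1196 in those 8 fits and 3264 in the last, beside 1618 with all libraries. In levels by sgRNA, NC-Guide1 was highest for 8 of the 9 and NC-Guide2 for GYPE. GATA1TSS-Guide2 was lowest for 6 (GYPB, GYPC, GYPE, BCAM, ICAM4 and CA1) and eHDAC6-Guide1 for KEL, XK and ERMAP. Of 63 steps between neighbours in these orders, 13 exceeded the larger SD of the pair. For GYPC the steps that exceeded it were the top, NC-Guide1 above NC-Guide2, and the bottom, eHDAC6-Guide1 above GATA1TSS-Guide2.

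Across the 24 libraries the members moved in groups, described by Pearson's r of log2 CPM with no p, since libraries share an sgRNA and the split of the NC libraries. As deviations from sgRNA means, GYPB went with GYPE (r = 0.92), GYPE with XK (0.91) and KEL with ERMAP (0.91), while BCAM had r from -0.57 to 0.05 with the others. These deviations keep the split within NC-Guide3 and NC-Guide4. Whether reads shared by GYPB and GYPE bear on their r was not tested. The values that follow are r of log2 CPM itself, without taking deviations. Among 9973 other genes, GYPC was most like ATP1B2 (0.98), PYCR1 (0.97) and FAM83A (0.97). Among the genes most like GYPE were TMEM209 (0.96) and TMEM14B (0.95), XK was most like RHAG (0.95), and ERMAP like C17orf99 (0.95), HBZ (0.94) and PKLR (0.93). Among those most like CA1 were HEPACAM2 (0.93) and HBE1 (0.89), and ICAM4 was most like DNPH1 (0.93), NPRL3 (0.92) and GSTP1 (0.91). KEL was most like C17orf99 (0.85), GYPB like XK (0.88), and BCAM like PRKAB2 (0.77).

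Other blood group antigen genes gave a mixed picture. Of 31 listed, 26 were in the table and 22 tested, with 5 higher and 8 lower under GATA1TSS and 4 higher and 7 lower under eHDAC6, against NC. Over all genes 13.5% were higher and 13.7% lower under GATA1TSS, and 15.8% higher and 15.3% lower under eHDAC6. Against the 4 the counts were 1 higher and 5 lower with GATA1TSS (10.1% of all genes called), and 2 higher and 1 lower with eHDAC6 (1.48%). ABCC4, an ABC transporter, fell in log2 by 0.50 under GATA1TSS (SE 0.063, edgeR adjusted p = 1.3e-06) and by 0.43 under eHDAC6 (SE 0.063, edgeR adjusted p = 2e-05). Against the 4 it was at -0.22 (edgeR adjusted p = 0.033) and -0.15 (edgeR adjusted p = 0.28). XG fell by 1.60 with GATA1TSS (SE 0.37, edgeR adjusted p = 0.0021) at a low level of 0.20 CPM, against 0.69 CPM in NC, and was at 0.01 with eHDAC6. SMIM1, of the Vel antigen, fell by 0.52 with GATA1TSS (SE 0.08, edgeR adjusted p = 1.1e-05) and was lower against the 4 as well, at -0.29. AQP1 rose by 0.50 with eHDAC6 (SE 0.07, edgeR adjusted p = 1.8e-05) and by 0.45 against the 4. These AQP1 values are means of sgRNAs that differed, with AQP1 higher with eHDAC6-Guide2 than with eHDAC6-Guide1, as given above. The SE does not include that difference. SEMA7A, chosen after its values were seen, was lower with both elements against all 12 (-0.30 with GATA1TSS, -0.26 with eHDAC6) and against the 4 (-0.38 and -0.35).

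**Figure D4:**
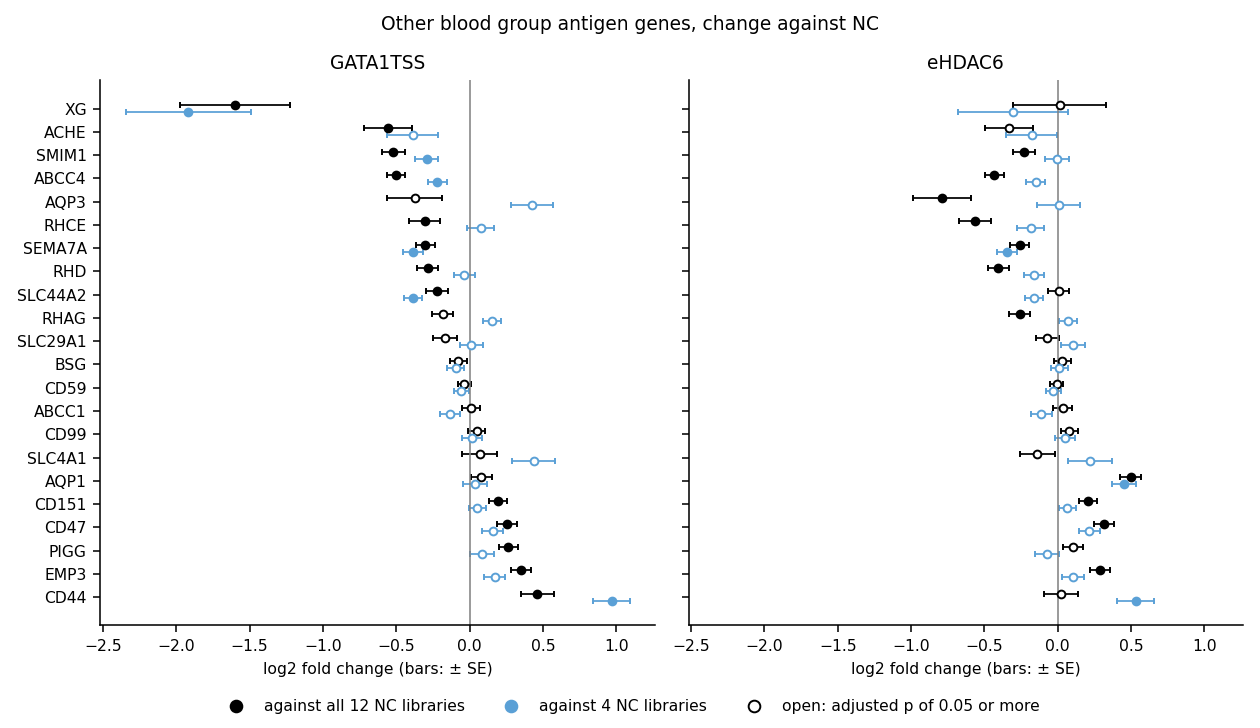
Log2 fold change (bars 1 SE) of the 22 other blood group antigen genes tested, with GATA1TSS (left) and eHDAC6 (right), against all 12 NC libraries (black) and the 4 (light blue), filled where adjusted p was under 0.05. ABCC4 lies at -0.50 and -0.43 in black and nearer 0 in light blue. AQP1 with eHDAC6, a mean of sgRNAs that differed, is filled in both.

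Family relatives were sorted by role. Of 10 tested relatives of ICAM4, BCAM and ERMAP, GATA1TSS gave 5 higher and 1 lower and eHDAC6 gave 7 higher and 1 lower, where 27.2% and 31.1% of all genes were called in either direction. Against the 4 these counts were 1 higher and 1 lower with GATA1TSS, and 0 higher and 1 lower with eHDAC6 by edgeR (10.1% and 1.48% of all genes, with BTN3A1 and ICAM5 higher with eHDAC6 at an unadjusted p under 0.05). ICAM1, the adhesion receptor whose gene ends 351 bases from ICAM4, rose by 0.53 with GATA1TSS (SE 0.08, edgeR adjusted p = 1.6e-05) and by 0.33 with eHDAC6 (SE 0.08, edgeR adjusted p = 0.0032). Against the 4 it was at 0.25 with GATA1TSS (edgeR adjusted p = 0.0072) and 0.04 with eHDAC6 (edgeR adjusted p = 0.78). The butyrophilin BTN2A2 rose by 0.54 with GATA1TSS and 0.51 with eHDAC6, and BTN3A1 by 0.47 and 0.66, but these were not called against the 4. ICAM2, chosen after its values were seen, was lower with GATA1TSS and eHDAC6 against all 12 (-0.37 and -0.34) and against the 4 (-0.37 and -0.34).

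Of 10 other carbonic anhydrases tested, GATA1TSS gave 1 higher and 2 lower and eHDAC6 gave 2 higher and 1 lower. That is 3 of 10 each, beside 27.2% and 31.1% of all genes. CA12, which encodes a membrane carbonic anhydrase, fell by 0.97 with GATA1TSS (SE 0.29, edgeR adjusted p = 0.013) at a low level of 0.73 CPM, against 1.51 CPM in NC, and by 1.52 against the 4 (edgeR adjusted p = 0.0045). CA11 rose by 0.51 with eHDAC6 (SE 0.11, edgeR adjusted p = 0.00082), CA13 fell by 0.42 with GATA1TSS and by 0.47 with eHDAC6, and CA8, which lacks catalytic activity, rose by 0.20 and 0.19, and these calls were not made against the 4. CA9, chosen after its values were seen and held by 1 to 8 counts in each of the 4, was called higher than the 4 with GATA1TSS at 1.87 (edgeR adjusted p = 0.0095) but was at -0.34 against all 12.

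The counts against NC in this paragraph stand beside 27.2% of all genes called with GATA1TSS (13.7% lower) and 31.1% with eHDAC6 (15.3% lower). Of 6 relatives of KEL and XK tested, 0 rose and 2 fell with each element. Among them was the endothelin-converting enzyme gene ECE1 (-0.48 with GATA1TSS, -0.56 with eHDAC6, and -0.06 and -0.14 against the 4). Against the 4, 1 of these 6 relatives was higher and 1 lower with GATA1TSS (10.1% of all genes called). With eHDAC6 0 were called (1.48%). Of 5 blood group glycosyltransferases tested, 2 were lower with GATA1TSS and 1 with eHDAC6, and 0 were higher with either. FUT1, which makes the H antigen, fell by 0.56 with GATA1TSS (SE 0.10, edgeR adjusted p = 0.00011) and by 0.42 against the 4. Of 7 genes on a mixed list of membrane skeleton genes and partners of glycophorin C or XK, EPB42 fell by 0.39 with GATA1TSS. With eHDAC6, VPS13A fell by 0.27 and MPP1, which encodes p55, rose by 0.13. Against the 4, edgeR called 0 of 7 with either element (0 at an unadjusted p under 0.05), and these 3 values were -0.04, -0.15 and 0.03.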

How the data were processed

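The authors deposited raw counts per gene symbol for 24 libraries and a file of hg19 gene models. Tools in the submitters' processing notes, listed without roles, are TopHat2 2.0.8, Bowtie2 2.1.0, SAMtools 0.1.19 and Picard, on hg19. How reads were counted, and whether by strand, is not given in the sources used here. Members and lists were chosen with earlier results of these data known, and members are all named. From each list up to 4 called genes with the largest change against NC were named.

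Tests used edgeR 4.0.16 (R 4.3.3, quasi-likelihood, TMM after filtering with a minimum count of 10, total of 15 and proportion of 0.7), with 1 coefficient per sgRNA over 24 libraries. An element is the mean of its 2 sgRNAs, NC that of its 4. The error reflects replicates within each sgRNA, so differences between sgRNAs of an element do not widen it. SE came from the F statistic. Adjusted p-values are Benjamini-Hochberg over 13147 genes. DESeq2 1.42.0, other scalings, filters, control sets and left-out libraries were alternatives. The tests were tried on simulated data with 1 spread for every gene. Those data had no differences between sgRNAs of an element and no split of the NC libraries. The trial therefore cannot show how the tests behave under either. Total counts set the precision. Replicates of an sgRNA differed by more than counting noise. Fits of each sgRNA alone and edgeR's bias-adjusted fit were chosen after seeing the data. Some genes of the lists and of the genes most like a member are not reported here.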

Additional observations from a re-analysis of the deposited data

Results flagged for a closer look

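GYPE at 116.0 CPM in eHDAC6-Guide1 replicate 2 stood apart from the other 5 eHDAC6 libraries (93.9 to 100.4 CPM), in a check of 18 groups of 6 in which chance marks about 5%. GYPC and CA1 differed between the GATA1TSS sgRNAs by tests of the difference itself, at -0.43 and -0.63 on the log2 scale, Guide2 minus Guide1.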

How the results depend on the processing

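Leaving out 1 library at a time kept 1192 results in direction and call, weakened 68, strengthened 14 and reversed 22, and the other alternatives kept 517, weakened 41, strengthened 18 and reversed 27. The cause was not tested. Depth limits BCAM most.

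Members called with GATA1TSS against NC (5) came to 1 against the 4 control libraries and 8 against the 8, to 2 without GATA1TSS-Guide2, 3 without NC-Guide1, 8 without NC-Guide3 and 1 with counts summed per sgRNA. Over all genes these last 4 fits called 1628, 2766, 4137 and 604, beside 3580 in all libraries. With eHDAC6 (6) they came to 0 against the 4, 2 without eHDAC6-Guide1, 3 without NC-Guide1 and 0 with summed counts (2236, 3340 and 254 of all genes in the last 3, beside 4088), and leaving out 1 library gave 3 (eHDAC6-Guide2 replicate 3, with 3250 of all genes) to 7. For eHDAC6 against GATA1TSS (0) they came to 2 without GATA1TSS-Guide1 (914 of all genes, beside 201). Between the GATA1TSS sgRNAs (2) leaving out 1 library gave 0 (GATA1TSS-Guide1 replicate 3, with 193 of all genes, beside 457) to 2. Among NC sgRNAs (5) it gave 2 to 8, with the counts over all genes given above. DESeq2 called 1 between the eHDAC6 sgRNAs (0 by edgeR). Over all genes DESeq2 called 406 for eHDAC6 against GATA1TSS (edgeR 201) and 2744 among NC sgRNAs (edgeR 1618).

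Signs turned as follows (log2). With GATA1TSS against the 4: GYPB 0.072, KEL 0.23, XK 0.21, ERMAP 0.12, and without GATA1TSS-Guide2 BCAM 0.015. With eHDAC6 against the 4: GYPB 0.052, KEL 0.26, XK 0.18, ERMAP 0.020, CA1 0.15. Without eHDAC6-Guide1, KEL 0.030 and CA1 0.058. BCAM with eHDAC6 was 0.17 against the 8, 0.055 without eHDAC6-Guide2, 0.073 without NC-Guide1 and 0.0058 without NC-Guide3. For eHDAC6 against GATA1TSS, GYPB was 0.037 without GATA1TSS-Guide1. Without GATA1TSS-Guide2, GYPC was -0.049, GYPE -0.062, BCAM -0.033 and CA1 -0.15. Without eHDAC6-Guide1, GYPE was -0.0068 and XK 0.018, and without eHDAC6-Guide2, KEL was -0.11 and CA1 -0.15. Between the GATA1TSS sgRNAs, XK was 0.0086 with upper-quartile scaling and 0.0090 with library totals.

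Leaving out 1 library gave these ranges where a sign turned. With eHDAC6 against NC, BCAM ran from -0.16 to 0.094. For eHDAC6 against GATA1TSS, GYPB ran from -0.11 to 0.11, GYPE from -0.035 to 0.12, KEL from -0.010 to 0.090 and XK from -0.079 to 0.038. Between the GATA1TSS sgRNAs, GYPB ran from -0.29 to 0.14, KEL from -0.049 to 0.15 and XK from -0.12 to 0.12. Between the eHDAC6 sgRNAs, GYPB ran from -0.076 to 0.10, GYPC from -0.00060 to 0.066 and BCAM from -0.39 to 0.13.

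Replicate numbers did not pair the samples in general (8 of 84 same-number pairs had r over 0.1, median 0.016, highest 0.43). Among pairs with different numbers, 18 of 168 had r over 0.1 (median -0.0059, highest 0.25). The split of the NC libraries into the 4 and the 8 did go with the replicate number within NC-Guide3 and NC-Guide4. All libraries of NC-Guide1 and NC-Guide2 were among the 8. With the replicate number as a block, 4 of 9 members were called with eHDAC6 (4080 of all genes, beside 4088 without the block). There XK (-0.21, edgeR adjusted p = 0.051) and ICAM4 (-0.23, edgeR adjusted p = 0.051) did not pass.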
